A study of Mus musculus with 55 samples.

Results

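Autophagy genes are described here across primary mouse neurons that were unstimulated, stimulated or silenced in culture. The set holds 41 genes listed by symbol for their known roles, and all 41 have a row in both count tables. The genes were chosen with earlier results of these data known. For each gene the transcript with the highest total count was used, and 28492 genes had one in the table of the maturation experiment, as did 28216 in that of the stimuli experiment. Of the 41, 38 passed the filter on low values, which asked for more than 5 CPM (counts scaled to a common library size) in at least 2 libraries of an experiment. Atg2a reached at most 6 counts in any library, Atg4a at most 2 and Tfeb at most 26, so these 3 were not tested.

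Autophagy encloses cytoplasm in a double membrane, the autophagosome, which then fuses with lysosomes. The ULK1 kinase complex starts the process, a phosphatidylinositol 3-kinase (PI3K) complex marks the membrane, lipid transfer proteins and scramblases enlarge it, and ubiquitin-like conjugation attaches ATG8 proteins, which cargo receptors bind. In neurons autophagosomes form largely in distal axons and travel to the soma, and loss of core autophagy genes is known to cause neurodegeneration.

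Cultures came from cortex and hippocampus of CD1 mouse embryos of mixed sex, without genetic modification. In the maturation experiment, 28 samples were taken at 7 or 23 days in vitro (7DIV and 23DIV), either basal or 15 and 180 min after 55 mM KCl, which depolarizes the membrane, or after bicuculline at 50 μM, which blocks GABA-A receptors, given with 4-aminopyridine at 2.5 mM, which blocks potassium channels (Bic+4AP). In the stimuli experiment, 27 samples were taken at 21DIV, either basal or 15, 45 and 180 min after 55 mM KCl or after 50 μM bicuculline alone (Bic). The same experiment held cultures silenced for 48 h with 1 μM tetrodotoxin (TTX), a blocker of sodium channels, which were sampled in TTX (basal TTX) or 15, 45 and 180 min after its washout (TTXw). Groups had 2 to 4 libraries. The labels do not say whether libraries of a group came from separate dissections, and embryos are not told apart, so p-values measure the spread between these libraries. Levels are CPM scaled by TMM, changes are log2 fold changes ± the standard error of the fit, and a gene was called when the quasi-likelihood test of edgeR, adjusted by Benjamini-Hochberg over all genes tested, gave an adjusted p under 0.05 and the change was at least 1.5-fold. Where libraries are said not to overlap, this describes the genes named, and the share of all genes without overlap was not counted.

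Counts on genes ranged from 1659722 to 4474968 per library at 7DIV, from 1784170 to 14012872 at 23DIV and from 1177500 to 3909487 in the stimuli experiment. The activity genes Fos, Arc and Npas4 together held 140.6 to 150.3 CPM in 21DIV basal libraries, 544 to 735 after 15 min of Bic, 609 to 687 after 15 min of KCl, and 24.5 to 42.2 under TTX. In 23DIV basal libraries they held 154.5 to 286.6 CPM, which overlaps the 265.9 to 699.8 after 15 min of KCl. After 180 min of KCl they read 647.5 to 1363, and at least 807.3 with Bic+4AP at either time. At 7DIV basal libraries held 370.2 to 571.6, overlapping those after 15 min of KCl (428.4 to 504.1) or Bic+4AP (526.9 to 612.8). At 180 min of 7DIV they read 1257 to 2274 with KCl and 579.2 to 822.5 with Bic+4AP. All 9 neuron markers were tested, and their summed level lay between 5221 and 5453 CPM in 21DIV basal libraries. Astrocyte markers were present as well, at 2606 to 3203 CPM in the same libraries. Microglia markers summed to 7.12 to 9.25 CPM there. Of the 6 microglia markers, C1qa and Tmem119 never exceeded 3 counts, nor did Cldn5 of the 5 endothelial and mural markers. These are bulk samples, in which fewer cells of a type and less RNA per cell cannot be told apart.

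**Figure D1:**
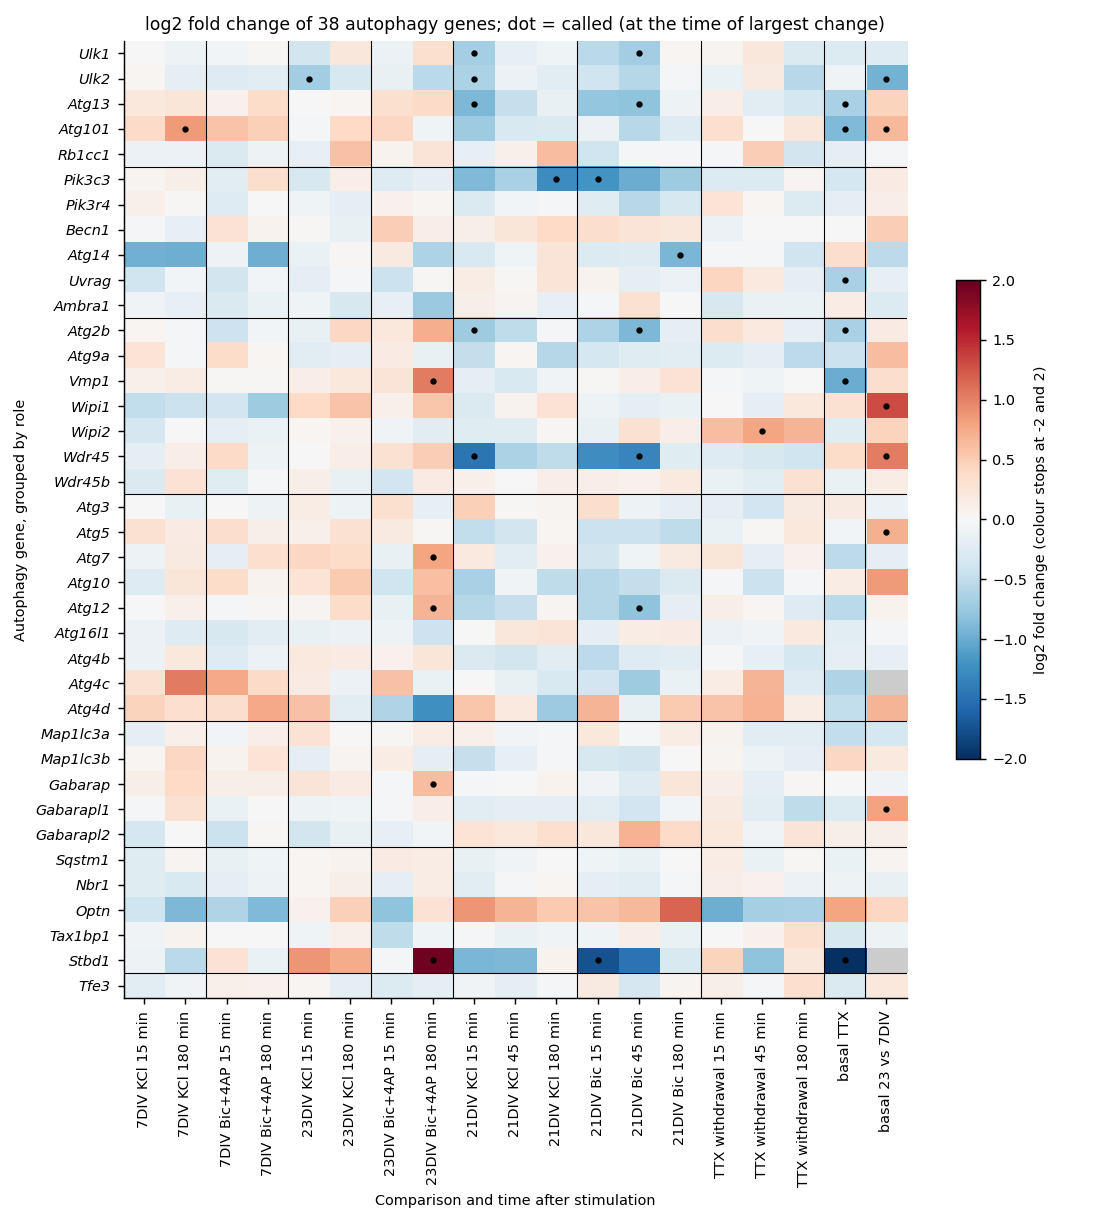
Colours give the log2 fold change of 38 autophagy genes (rows, grouped by role) in each comparison and time (columns), and a dot marks a called gene at its time of largest change. Dots for lower levels gather under KCl and Bic at 21DIV. Under basal TTX 6 of 38 members were lower (15.8%), beside 10.8% of all genes. Dots for higher levels occur under Bic+4AP at 23DIV and with maturation. With maturation the share of members higher (13.9%) was below that of all genes (18.2%). Grey cells were not tested, Bic is bicuculline, 4AP 4-aminopyridine and TTXw withdrawal of tetrodotoxin.

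A fall of autophagy transcripts under stimulation was seen in the stimuli experiment, where 9 genes were called and smaller negative changes were seen in many others. After KCl at 21DIV, 6 of 38 genes were called lower (2.15% of all genes tested were) and 0 higher (3.89% of all genes). After Bic, 8 of 38 were called lower (2.54% of all genes) and 0 higher (4.08%). For rises, 1 gene reached an unadjusted p under 0.05 with KCl and 1 with Bic; DESeq2 and edgeR's likelihood ratio test called Rb1cc1 higher with KCl, and each tool called 0 members higher with Bic. KCl and Bic were compared with the same 3 basal libraries, so the 5 genes called with both are not independent observations, and 9 genes were called with at least one of them. Of those 9, the study itself names Ulk1, Ulk2, Atg2b and Stbd1 as lower, from these same samples. Of these 4, 3 were called lower with KCl and 3 with Bic. They belong to the set, which was chosen with earlier results known. The shares called lower are therefore not independent of that report.

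Members of the ULK1 complex accounted for 3 of the 6 calls with KCl and 2 of the 8 with Bic, out of 5 tested. Atg13, the scaffold subunit that links the kinase to its partners, stood at 117.1, 100.7 and 129.7 CPM in the basal libraries, at 72.7 and 52.4 after 15 min of KCl, and at 66.4 and 65.9 after 45 min of Bic. Every one of these stimulated libraries lay below every basal library. The change of Atg13 was −0.90 ± 0.16 with KCl at 15 min (adjusted p = 0.000988 over the time course, edgeR) and −0.81 ± 0.16 with Bic at 45 min (adjusted p = 0.000204, edgeR). The KCl call of Atg13 was lost without KCl 15 min replicate 2, and its Bic call held in every other fit tried.

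Ulk1, the kinase that starts autophagy, measured 132.5, 133.97 and 156.8 CPM in basal libraries. It measured 89.3 and 86.8 after 15 min of KCl, and 88.6 and 86.2 after 45 min of Bic, again without overlap. These changes of Ulk1 were −0.68 ± 0.14 (adjusted p = 0.00651, edgeR) and −0.69 ± 0.14 (adjusted p = 0.000296, edgeR). The KCl call of Ulk1 was lost without either KCl 15 min library, and both its calls were lost with thinned counts. After 180 min the Ulk1 libraries read 123.7 and 139.8 with KCl and 147.5 and 143.4 with Bic, within or near the basal range.

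Ulk2, its paralogous kinase, measured 589, 570 and 667 CPM in basal libraries and 367 and 421 after 15 min of KCl, a change of −0.63 ± 0.13 (adjusted p = 0.0105, edgeR). The KCl call of Ulk2 was lost without basal replicate 5, without either KCl 15 min library and with the replicate block. With Bic, Ulk2 read 456 and 361 CPM at 45 min, a change of −0.58 ± 0.13 that passed the adjusted p (0.00531, edgeR) but fell short of 1.5-fold. Rb1cc1, which encodes the FIP200 subunit, was not called by edgeR's quasi-likelihood test, although DESeq2 and the likelihood ratio test called it higher with KCl, and its log2 fold change was −0.17 at 15 min and 0.62 at 180 min.

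Pik3c3, the catalytic subunit of the PI3K complex, was called lower with both stimuli, and Atg14, the subunit that directs the complex to autophagosomes, with Bic only; whether the 2 stimuli differed for Atg14 was not tested. Pik3c3 stood at 20.2, 20.7 and 25.3 CPM in basal libraries, at 11.7 and 12.1 after 15 min of KCl, at 12.8 and 6.28 after 180 min of KCl, and at 10.3 and 8.06 after 15 min of Bic. All of these lay below the basal range, including the late ones. The largest changes of Pik3c3 were −1.26 ± 0.33 at 180 min of KCl (adjusted p = 0.0225 over the time course, edgeR) and −1.20 ± 0.32 at 15 min of Bic (adjusted p = 0.013, edgeR). The KCl call of Pik3c3 held in 3 of 9 fits that left out a library, with changes from −1.78 (without KCl 180 min replicate 1) to −0.77 (without replicate 2, adjusted p = 0.112, edgeR), and was lost with thinned counts, summed transcripts and the replicate block. It was lost too without any 1 of the basal libraries or of the 15 min KCl libraries, and the Bic call without basal replicate 5. Atg14 read 40.5, 40.3 and 55.4 CPM in basal libraries and 23.1 and 24.7 after 180 min of Bic, a change of −0.92 ± 0.20 (adjusted p = 0.0118, edgeR), and it was the single member called at 180 min alone (0.0748% of all genes were lower). The call of Atg14 was lost without either Bic 180 min library or without basal replicate 5. It was lost too with summed transcripts, the replicate block and thinned counts, where the change was −0.59 (adjusted p = 0.470, edgeR). Becn1, Pik3r4, Uvrag and Ambra1 were not called with either stimulus.

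Among genes that build the membrane, Wdr45, a PI3P-binding protein whose human counterpart is mutated in a neurodegeneration with brain iron accumulation, showed the largest change with KCl. Wdr45 stood at 28.2, 25.2 and 30.9 CPM in basal libraries, at 10.5 and 9.92 after 15 min of KCl, and at 12.6 and 10.2 after 45 min of Bic. These levels of Wdr45 amount to −1.46 ± 0.25 (adjusted p = 0.000938, edgeR) and −1.31 ± 0.24 (adjusted p = 0.000193, edgeR). Atg2b, a lipid transfer protein, read 57.6, 45.5 and 55.4 CPM in basal libraries, 35.6 and 29.1 after 15 min of KCl (−0.72 ± 0.19, adjusted p = 0.0307, edgeR) and 31.7 and 25.5 after 45 min of Bic (−0.90 ± 0.20, adjusted p = 0.0066, edgeR). The stimulated libraries of Wdr45 and Atg2b did not overlap the basal ones. The KCl call of Atg2b held in 2 of 9 fits that left out a library (those without basal replicate 2 or KCl 45 min replicate 1), and it was lost with summed transcripts, the replicate block, the position letter and thinned counts, where the change was −0.29 (adjusted p = 0.603, edgeR). Its Bic call was lost without Bic 45 min replicate 2. The 3′ end of Wdr45 lies within the predicted gene Gm45208 on the same strand, so their 3′ reads cannot be told apart. The other 5 tested genes of this group, Atg9a, Vmp1, Wipi1, Wipi2 and Wdr45b, were not called.

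Downstream of these, 2 further genes were called, both with Bic. Atg12, the ubiquitin-like protein that is joined to ATG5, measured 456, 406 and 429 CPM in basal libraries and 246 in each library after 45 min of Bic, a change of −0.81 ± 0.12 (adjusted p = 1.2e-05, edgeR). With KCl, Atg12 measured 267 and 312 CPM at 15 min, a change of −0.57 ± 0.11 that passed the adjusted p (0.000311, edgeR) without reaching 1.5-fold. Stbd1, a receptor that brings glycogen to autophagosomes, measured 9.97, 13.3 and 12.4 CPM in basal libraries and 2.58 and 5.37 after 15 min of Bic, a change of −1.74 ± 0.50 (adjusted p = 0.0194, edgeR). Stbd1 is scarce, with 33 to 36 counts in a basal library and 6 to 7 in these Bic libraries. Its Bic call held in 4 of 9 fits that left out a library, with changes from −2.14 (without Bic 15 min replicate 3) to −1.10 (without replicate 2). The call was also lost without basal replicate 2 or 5 or either 45 min Bic library. Thinned counts, the replicate block, the position letter and DESeq2 lost it too. None of the 5 ATG8 genes was called with KCl or Bic by this test, although Map1lc3b, which encodes LC3B, passed the adjusted p below 1.5-fold with KCl (−0.46 ± 0.11 at 15 min, adjusted p = 0.029, edgeR) and with Bic (−0.37 ± 0.11 at 45 min, adjusted p = 0.0299, edgeR).

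**Figure D2:**
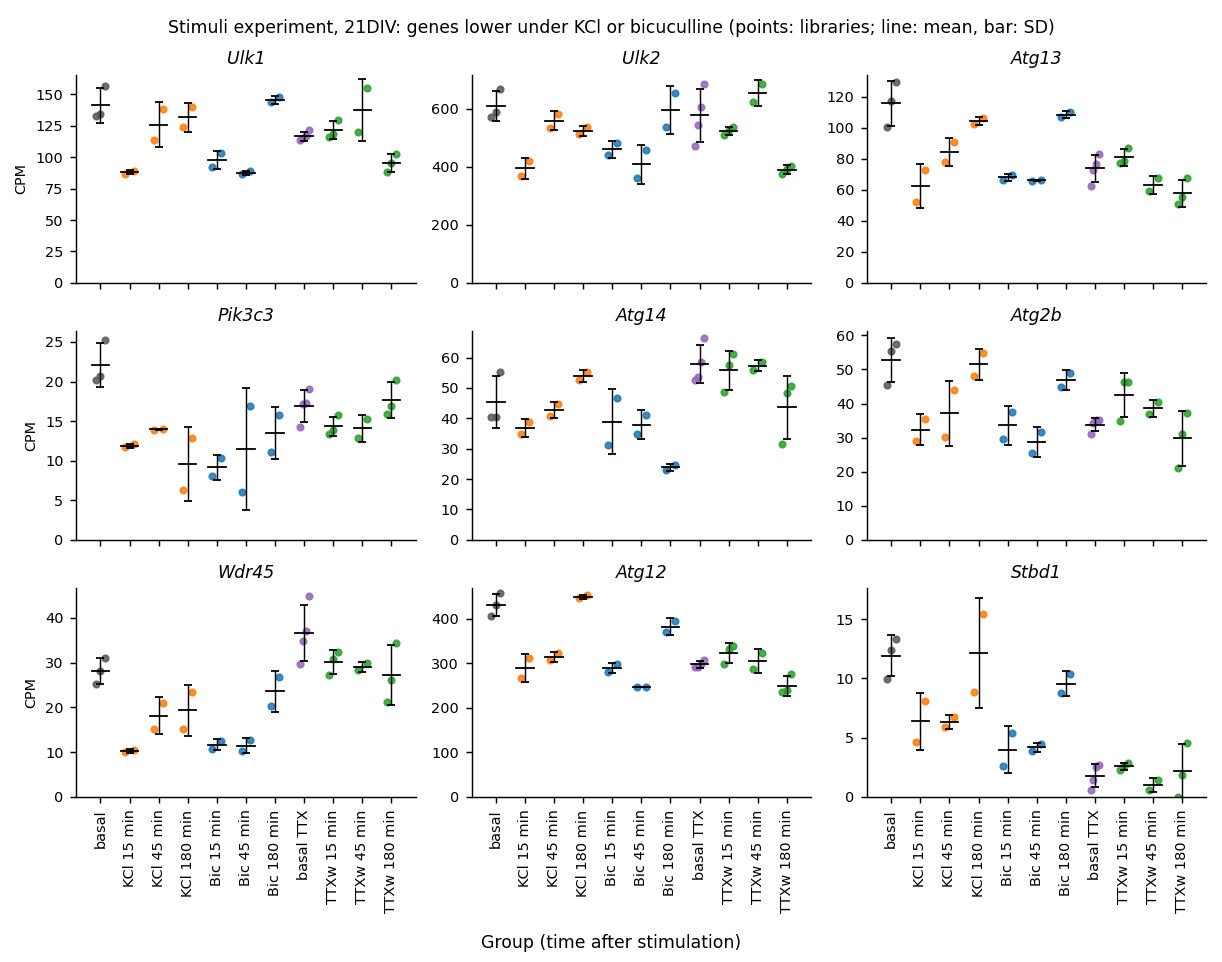
Each point is a library of the stimuli experiment and gives CPM (vertical axis, from 0) for the 9 genes called lower with KCl or bicuculline (Bic), by group and time (horizontal axis). Lines are means and bars SD. Wdr45 lies between 25.2 and 30.9 in basal libraries, at 9.92 and 10.5 after 15 min of KCl and at 20.3 and 26.8 after 180 min of Bic.

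Most falls were largest at 15 or 45 min, while those of Pik3c3 with KCl and Atg14 with Bic were largest at 180 min. With KCl, 6 members were lower at 15 min tested alone (2.69% of all genes), 0 at 45 min (0.158%) and 0 at 180 min (0.258%) by edgeR, where 7 and 3 members reached an unadjusted p under 0.05 in that direction. With Bic, 4 were lower at 15 min (1.01% of all genes), 7 at 45 min (2.95%) and 1 at 180 min (0.0748%). At an unadjusted p under 0.05, 12 members were lower at 15 min of KCl, 10 at 15 min of Bic and 15 at 45 min of Bic. In a contrast chosen after the data were seen, 5 members were higher at 180 than at 15 min of KCl (1.73% of all genes) and 0 lower (2.29%), and 7 were higher at 180 than at 45 min of Bic (1.37% of all genes) and 0 lower (1.95%). The 5 were Atg12, Atg13, Map1lc3b, Rb1cc1 and Ulk1, and the 7 were Atg12, Atg13, Atg2b, Gabarap, Ulk1, Ulk2 and Wdr45. As an example, Ulk1 rose by 0.74 ± 0.15 from 45 to 180 min of Bic (adjusted p = 0.00302, edgeR) and Wdr45 by 1.07 ± 0.26 (adjusted p = 0.0151, edgeR). In both contrasts every early library carries the letter B in the position code of its label, and every 180 min library the letter A. Time and letter cannot be told apart there.

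Over all 38 tested members the shift was small. The median log2 fold change was −0.22 after 15 min of KCl, −0.21 after 15 min of Bic and −0.25 after 45 min of Bic, where the median of all genes tested was −0.01 each time. After 45 min of Bic, 29 of 38 members (76.3%) lay below 0, and 51.4% of all genes did. By 180 min the medians of the members were −0.02 with KCl and −0.04 with Bic. Members that were not called ranged from −0.71 (Atg4c) to 0.70 (Gabarapl2) after 45 min of Bic, with 21 of 30 below 0, and 21 of 32 were below 0 after 15 min of KCl. Sqstm1, which encodes the cargo receptor p62, stayed between 483 and 642 CPM over all 27 libraries of the stimuli experiment (median 554), and Becn1 between 45.9 and 81.0 (median 60.3).

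Other measures moved together with these early libraries. The summed astrocyte markers read 4344 to 5853 CPM after 15 or 45 min of KCl or Bic and 3091 to 3607 after 180 min, against 2606 to 3203 in basal libraries, and 3 of 9 astrocyte markers were called higher with KCl and 5 of 9 with Bic. Neuron markers read 6240 to 6825 CPM in the early libraries, and 2 of 9 were called higher with KCl and 3 of 9 with Bic. The part of these shifts in the autophagy values was not tested. The libraries taken at 15 and 45 min carry the letter B in the position code of their labels, as does basal replicate 5, while the other basal libraries and those taken at 180 min carry A. In basal replicate 5 Atg13, Ulk1, Ulk2, Wdr45 and Pik3c3 each had their highest basal level, and with the letter as a term in the fit 5 members were called lower with KCl and 6 with Bic. Only the basal group holds both letters, so that term rests on basal replicate 5 against the other basal libraries. The counts from that fit therefore cannot separate letter from stimulus. Without basal replicate 5 the counts were 3 and 5, and without either library of 15 min of KCl the KCl count was 2. Wdr45 kept its call with both stimuli in each of these fits.

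**Figure D3:**
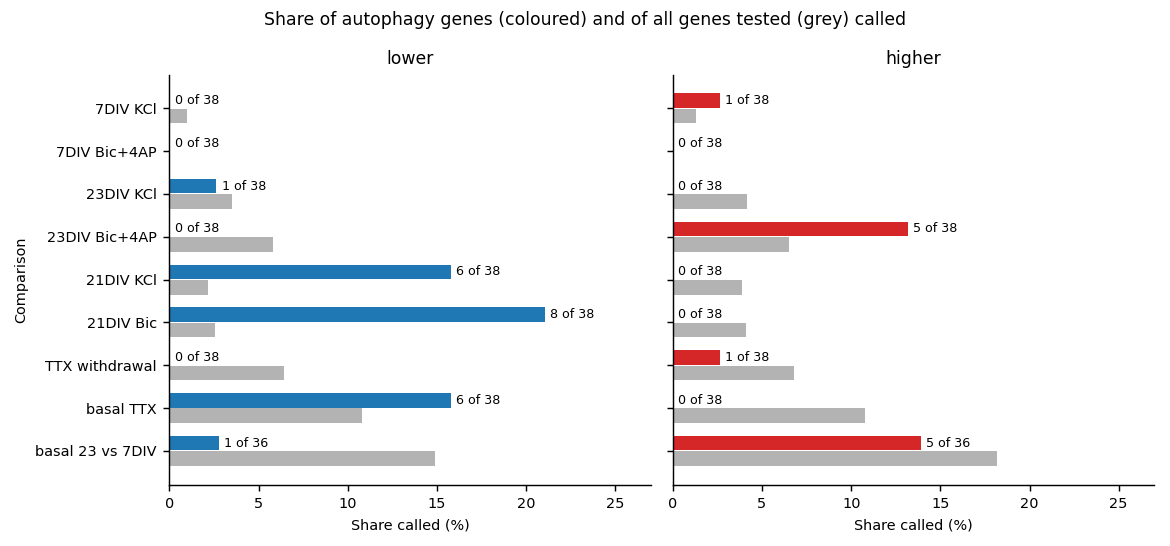
Bars give the share of autophagy genes called lower (left, blue) or higher (right, red) in each comparison, with the number called of the number tested, and grey bars give the share of all genes tested. Lower shares stand far above grey with KCl (15.8%) and Bic (21.1%) at 21DIV, and for TTX withdrawal the members lie below grey in both directions.

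Few falls were called in the maturation experiment, which was counted in a separate table, so that its values are set beside the others without a test between them. After KCl at 23DIV, 1 of 38 genes was called lower (3.52% of all genes) and 0 higher (4.13% of all genes). At an unadjusted p under 0.05, 5 members were higher, and DESeq2 called 1, Rb1cc1. The lower gene was Ulk2, at 315, 473 and 382 CPM in 23DIV basal libraries and at 194, 210 and 316 after 15 min, where the third library reached into the basal range. Its change was −0.70 ± 0.18 (adjusted p = 0.0272, edgeR). Ulk2 lost the call without basal replicate 2 or 3 or without KCl 15 min replicate 1 or 2, and in a fit on the compared groups only.

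Ulk1 passed the adjusted p after KCl at 23DIV with a change under 1.5-fold, −0.37 ± 0.16 at 15 min (adjusted p = 0.0474 over both times, edgeR), from 62.5, 77.8 and 64.3 CPM to 44.1, 57.6 and 57.6. Every 15 min KCl library of Ulk1 lay below every basal one, while at 180 min Ulk1 read 72.5, 86.2 and 79.4 CPM, overlapping basal levels or above them. Atg13, in contrast, read 107.8, 90.1 and 110.7 CPM in 23DIV basal libraries and 111.5, 68.1 and 126.7 after 15 min of KCl, which overlap. Wdr45 and Atg2b overlapped likewise, at 18.4, 26.2 and 25.3 CPM for basal Wdr45 and 21.8, 19.0 and 29.2 after KCl, and at 33.1, 31.9 and 28.3 CPM for basal Atg2b and 24.7, 22.3 and 37.2 after KCl. The median over members was 0.03 after 15 min and 0.08 after 180 min of KCl.

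Bic+4AP at 23DIV gave rises instead. Over both times tested together, 5 of 38 genes were called higher (6.50% of all genes) and 0 lower (5.81%). The 5 had their largest change at 180 min. In the same test 4 members reached an unadjusted p under 0.05 with a negative change, with 0 called lower by DESeq2 or the likelihood ratio test. Tested at 180 min alone, 6 members were higher (7.39% of all genes), with Atg2b added, and 1, Ambra1, was lower (6.84% of all genes). The change of Ambra1 was −0.75 ± 0.24 (adjusted p = 0.0303, edgeR). At 15 min alone 0 members were called in either direction (0.0511% of all genes were higher and 0 lower), with 3 lower and 1 higher at an unadjusted p under 0.05. The rise of Atg2b was 0.73 ± 0.22 (adjusted p = 0.0199, edgeR), from 33.1, 31.9 and 28.3 to 51.5 and 51.6 CPM. Only 2 libraries stand behind the values at 180 min, and both carry the letter E, which no other library of the experiment has, so letter and treatment cannot be told apart there.

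Vmp1, an endoplasmic reticulum scramblase needed for autophagosomes to form, measured 420, 329 and 337 CPM in 23DIV basal libraries and 780 and 711 after 180 min of Bic+4AP, well apart. The change of Vmp1 was 1.04 ± 0.15 (adjusted p = 4.03e-05, edgeR). At 7DIV, Vmp1 read 300, 296 and 276 CPM in basal libraries and 335, 311 and 244 after the same treatment, and the response differed between stages by 1.01 ± 0.21 (adjusted p = 0.00949 for the interaction, edgeR). Vmp1 lies on the minus strand at chr11:86583858-86683836 (GRCm38, the same build as mm10), and the hairpin of the microRNA miR-21a is annotated on the same strand at chr11:86584067-86584158, 209 bases inside the 3′ end of Vmp1. These libraries count 3′ ends, so transcripts of Vmp1 and longer transcripts that carry the hairpin cannot be told apart, and the mature microRNA was not measured. Its main arm is shown, from RefSeq, because it shares the counted end of the gene with the strongest rise by adjusted p, and the capitals mark the seed, bases 2 to 8.
mmu-miR-21a-5p: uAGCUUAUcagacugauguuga

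Stbd1 rose with Bic+4AP at 23DIV from 4.30, 1.96 and 5.07 CPM to 17.8 and 11.6 at 180 min, a change of 1.94 ± 0.48 (adjusted p = 0.00756, edgeR). In the stimuli experiment the same gene was lower after 15 and 45 min of Bic alone, and after 180 min it read 8.80 and 10.3 CPM, close to its basal 9.97, 13.3 and 12.4. The stimuli differ by 4-aminopyridine and no test was made between the tables. Atg7, the E1-like enzyme of both conjugation pathways, rose from 30.1, 30.3 and 29.9 to 58.7 and 45.1 CPM (0.79 ± 0.21, adjusted p = 0.00724, edgeR). Atg12 rose from 336, 307 and 280 to 541 and 447 CPM (0.68 ± 0.13, adjusted p = 0.000211, edgeR).

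Gabarap, an ATG8 protein that acts late in autophagosome closure, rose from 2006, 1792 and 1762 to 2954 and 2748 CPM (0.62 ± 0.12, adjusted p = 0.000538, edgeR). For Stbd1, Atg7, Atg12 and Gabarap the 180 min libraries did not overlap the basal ones. Differences between stages were called for Atg12 (0.66 ± 0.18, adjusted p = 0.0244, edgeR) and Gabarap (0.51 ± 0.16, adjusted p = 0.0427, edgeR) besides Vmp1, so that 3 of 38 members responded more at 23DIV (2.23% of all genes) and 0 less (1.94%), with 2 less at an unadjusted p under 0.05 and 0 by DESeq2. Without replicate 2 of Bic+4AP at 180 min, Vmp1 alone stayed called at 23DIV and 0 members differed between stages. The stage difference of Gabarap held in 4 of 16 fits that left out a library (those without 7DIV basal replicate 4, 7DIV Bic+4AP 15 min replicate 2, 23DIV basal replicate 1 or 23DIV Bic+4AP 15 min replicate 2) and was lost with thinned counts (adjusted p = 0.0507, edgeR) and summed transcripts (adjusted p = 0.0808, edgeR). With Bic+4AP at 23DIV 3 of 9 astrocyte, 3 of 7 tested oligodendrocyte, 3 of 9 neuron and 3 of 5 progenitor markers were called lower, and 1 neuron and 2 of 3 tested microglia markers higher. At 180 min neuron markers summed to 5770 and 6214 CPM against 6486 to 7531 in basal libraries, and astrocyte markers summed to 1754 and 3371 CPM against 4626 to 5644 in basal libraries. The part of these shifts in the autophagy values was not tested.

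**Figure D4:**
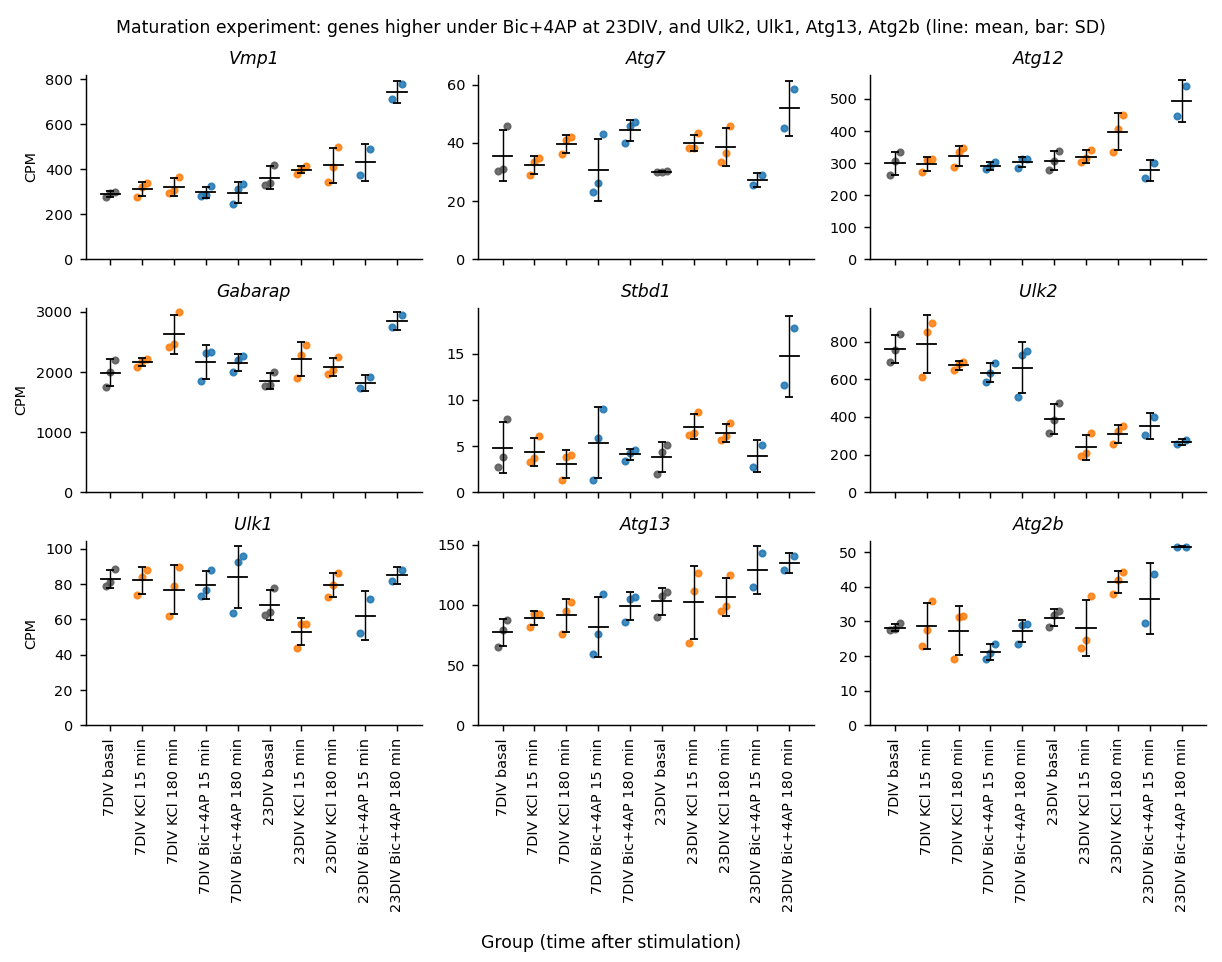
Each point is a library of the maturation experiment and gives CPM (vertical axis, from 0) by stage, stimulus and time (horizontal axis), where Bic+4AP is bicuculline with 4-aminopyridine. Lines are means and bars SD. Vmp1 reads 711 and 780 after 180 min of Bic+4AP at 23DIV and at most 497 in every other group, and Ulk2 lies lower at 23DIV than at 7DIV in basal libraries.

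Neurons at 7DIV showed little change. After KCl, 1 of 38 genes was called higher (1.28% of all genes) and 0 lower (1.01%), with 3 members at an unadjusted p under 0.05 in the lower direction and 0 called lower by DESeq2 or the likelihood ratio test. The gene was Atg101, a stabilizing subunit of the ULK1 complex, at 22.2, 25.04 and 24.0 CPM in basal libraries and 36.3, 42.8 and 48.6 after 180 min, with no overlap. Its change was 0.85 ± 0.19 (adjusted p = 0.0212, edgeR), and the call was lost without basal replicate 2 or 4 or without KCl 180 min replicate 2 or 3. After Bic+4AP, edgeR called 0 members, as did DESeq2, and 4 members reached an unadjusted p under 0.05, while 0 of 11746 genes were called in all. For KCl, 0 members differed between stages by edgeR's quasi-likelihood test (1.07% of all genes responded less at 23DIV and 0.988% more), 6 reached an unadjusted p under 0.05, and DESeq2 and the likelihood ratio test each called Map1lc3a and Wdr45b.

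Maturation itself, compared in basal cultures on 6 libraries, left most autophagy genes without a call. Of 36 genes tested, 5 were called higher at 23DIV (18.2% of all genes) and 1 lower (14.9%). Atg4c and Stbd1 did not pass the filter in these libraries. Ulk2 fell from 840, 757 and 691 CPM at 7DIV to 315, 473 and 382 at 23DIV, a change of −0.94 ± 0.15 (adjusted p = 0.000251, edgeR). Gabarapl1, an ATG8 protein abundant in brain, rose from 336, 379 and 309 to 643, 538 and 561 CPM (0.80 ± 0.13, adjusted p = 0.000251, edgeR). For Ulk2 and Gabarapl1 the stages did not overlap.

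Wipi1, a PI3P-binding protein, rose from 10.4, 7.33 and 4.31 to 20.1, 17.3 and 14.1 CPM (1.30 ± 0.34, adjusted p = 0.00822, edgeR). Wdr45 went from 6.13, 19.5 and 10.5 to 18.4, 26.2 and 25.3 CPM (1.03 ± 0.33, adjusted p = 0.0254, edgeR), with 1 library of 7DIV inside the 23DIV range. Atg5, the partner of ATG12, rose from 14.1, 19.5 and 13.8 to 23.1, 24.9 and 26.5 CPM (0.71 ± 0.23, adjusted p = 0.0278, edgeR). Atg101 rose from 22.2, 25.04 and 24.0 to 34.9, 33.3 and 41.2 CPM (0.65 ± 0.20, adjusted p = 0.0179, edgeR). Without 7DIV basal replicate 2, or without 23DIV basal replicate 3, the calls were Gabarapl1, Ulk2 and Wipi1, and without 7DIV basal replicate 4 they were Gabarapl1, Optn, Tfe3 and Ulk2. Wdr45 and Atg5 were also lost without 23DIV basal replicate 2. Atg5 was lost as well without the filter, with thinned counts and with the replicate block (adjusted p = 0.149, edgeR). Atg101 was lost with the replicate block (adjusted p = 0.0779, edgeR) and Wdr45 with summed transcripts (adjusted p = 0.0543, edgeR). Wipi1 changed by 0.95 without 7DIV basal replicate 4 (adjusted p = 0.0538, edgeR) and by 0.85 with the replicate block (adjusted p = 0.123, edgeR). Between the same stages 8 of 9 astrocyte markers and 7 of 7 tested oligodendrocyte markers were called higher, and astrocyte markers summed to 585 to 859 CPM at 7DIV and 4626 to 5644 at 23DIV. Their part in the maturation changes was not tested.

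Silenced cultures were measured against the same 3 basal libraries as KCl and Bic. In basal TTX, 6 of 38 genes (15.8%) were called lower, beside 10.8% of all genes. Of the 38, 0 were called higher (10.8% of all genes), with 4 higher at an unadjusted p under 0.05 and 0 higher by DESeq2. Vmp1 fell from 350, 327 and 322 CPM to 126.98, 177, 176 and 183 (−0.999 ± 0.11, adjusted p = 6.5e-09, edgeR). Stbd1 fell from 9.97, 13.3 and 12.4 CPM to 2.65, 0.578, 1.42 and 2.52 (−2.63 ± 0.43, adjusted p = 6.89e-06, edgeR), which is 33 to 36 counts per library against 1 to 7. Neither gene overlapped between the groups.

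Atg101 fell from 29.9, 26.6 and 36.2 CPM to 23.1, 13.3, 12.8 and 17.6 (−0.88 ± 0.24, adjusted p = 0.00445, edgeR), and Atg13 from 117.1, 100.7 and 129.7 to 83.3, 72.8, 62.6 and 77.0 (−0.64 ± 0.13, adjusted p = 0.000174, edgeR). Atg2b fell from 57.6, 45.5 and 55.4 CPM to 35.1, 35.2, 34.1 and 30.9 (−0.65 ± 0.17, adjusted p = 0.00215, edgeR). Uvrag, a PI3K subunit of endosomal and late autophagic membranes, fell from 92.9, 100.3 and 82.2 CPM to 61.5, 52.6, 76.1 and 47.8 (−0.65 ± 0.16, adjusted p = 0.00179, edgeR). These 4 genes, already picked by their call, did not overlap between groups either. Wdr45, which fell with KCl and Bic, read 29.8, 37.0, 44.8 and 34.9 CPM in basal TTX and was not called. All 9 astrocyte markers were called higher in basal TTX, with sums of 7369 to 8409 CPM, as were 5 of 7 tested oligodendrocyte markers, and 2 of 9 neuron markers were lower. The part of that shift in the autophagy values was not tested.

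After TTX washout, 1 of 38 genes was called higher (6.78% of all genes) and 0 lower (6.45%), although 6 members reached an unadjusted p under 0.05 in the lower direction, and DESeq2 and the likelihood ratio test also called 0 lower. Wipi2, which recruits the conjugation machinery to PI3P, read 33.1, 30.0, 29.9 and 31.3 CPM in basal TTX, 60.5, 44.3 and 35.3 at 15 min, 65.0 and 43.5 at 45 min and 51.4, 46.6 and 52.9 at 180 min. All libraries after washout lay above all basal TTX libraries, and the change of Wipi2 was 0.79 ± 0.20 at 45 min (adjusted p = 0.00713 over the time course, edgeR). Ulk2 read 606, 471, 684 and 544 CPM in basal TTX and 374, 392 and 404 at 180 min, a change of −0.56 ± 0.11 (adjusted p = 0.000157, edgeR) that stayed short of 1.5-fold, and Gabarapl1 likewise changed by −0.51 ± 0.11 (adjusted p = 0.000163, edgeR). Without basal TTX replicate 2 the calls were Atg9a, Ulk2 and Wipi2, and without basal TTX replicate 1, 3 or 4, TTXw 180 min replicate 1 or 3, or TTXw 15 min replicate 2, Wipi2 was called with 1 other gene each time. Atg13 and Stbd1, both lower in basal TTX, were not called after washout. At 180 min Atg13 read 50.7, 67.8 and 55.1 CPM and Stbd1 4.55, 1.88 and 0 CPM, where 1 library of Stbd1 lay above the basal TTX range, 1 within it and 1 below it. At 180 min of washout astrocyte markers summed to 10810 to 15120 CPM and neuron markers to 2492 to 3033, against 4067 to 4592 for neuron markers in basal TTX, and the part of this in the autophagy values was not tested.

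Across all 11 comparisons and interactions 18 of the 41 genes were called at least once by edgeR's quasi-likelihood test over the times of a stimulus, and 20 of the tested genes were not. The uncalled ones include Map1lc3a and Map1lc3b, Gabarapl2, the cargo receptors Sqstm1, Nbr1, Optn and Tax1bp1, the PI3K subunits Becn1, Pik3r4 and Ambra1, and Tfe3, a transcription factor of lysosomal and autophagy genes. Ambra1 passed at 180 min of Bic+4AP alone, DESeq2 or the likelihood ratio test called Rb1cc1, Map1lc3a and Wdr45b, and some of the others were called when a library was left out or under another setting. Some of these were scarce: Gabarapl2 did not exceed 15.9 CPM in any library and Optn did not exceed 14.5. Whether small changes of theirs could be detected at this depth was not tested. Reads of ATG8 genes may be divided with processed pseudogenes, and how reads with several matches were counted is not stated in the sources used here. Map1lc3b also overlaps the 3′ end of Zcchc14 on the other strand, and Becn1 lies within Cntd1 at its 3′ end, on the other strand, so their counts depend on how strand was used, which was not stated either. The 3′ end of Map1lc3b lies within the gene Gm20388 on the same strand too, so strand cannot tell their reads apart.

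The wider pathway was followed with 6 lists of further genes, which were compiled with earlier results of these data known. In 21DIV KCl 6 of these genes were called lower and 2 higher, which is 4.84% and 1.61% of those tested, beside 2.15% and 3.89% of all genes. In 21DIV Bic 6 were lower and 2 higher as well, the same shares, beside 2.54% and 4.08% of all genes. Depdc5, a subunit of the GATOR1 complex that restrains mTORC1, fell by 1.65 ± 0.36 on the log2 scale with KCl (adjusted p = 0.01, edgeR), and Rheb, the GTPase that activates mTORC1, rose by 1.17 ± 0.17 (adjusted p = 0.000124, edgeR). With Bic, Deptor, an mTOR inhibitor, fell by 1.85 ± 0.48 (adjusted p = 0.0305, edgeR), Depdc5 by 1.36 ± 0.35 (adjusted p = 0.047, edgeR), and Rheb rose by 0.83 ± 0.18 (adjusted p = 0.00375, edgeR). The receptors of endoplasmic reticulum autophagy Calcoco1 (−1.02 ± 0.23 with KCl, adjusted p = 0.0235, edgeR) and Ccpg1 (−0.98 ± 0.20 with KCl, adjusted p = 0.00156, and −1.35 ± 0.21 with Bic, adjusted p = 4.29e-05, edgeR) were lower, while Foxo6, a forkhead factor, rose with Bic (0.98 ± 0.22, adjusted p = 0.00488, edgeR).

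At 23DIV, 4 further genes rose and 2 fell with KCl, or 3.28% and 1.64% of those tested, beside 4.13% and 3.52% of all genes. With Bic+4AP 13 rose and 6 fell, or 10.7% and 4.92%, beside 6.50% and 5.81% of all genes. Sesn2, a stress-induced inhibitor of mTORC1, rose with both (2.54 ± 0.58, adjusted p = 0.0146, and 2.70 ± 0.63, adjusted p = 0.00703, edgeR), as did the lysosomal galactosidase Gla (1.45 ± 0.30, adjusted p = 0.0052, and 1.82 ± 0.32, adjusted p = 0.000183, edgeR) and the AMPK subunit Prkab2 (1.11 ± 0.25, adjusted p = 0.0104, and 1.102 ± 0.27, adjusted p = 0.00929, edgeR). Foxo6 fell with both (−1.67 ± 0.22, adjusted p = 1.86e-05, and −1.81 ± 0.26, adjusted p = 1.29e-05, edgeR), Vps33a, a subunit of the fusion machinery, fell with KCl (−0.70 ± 0.18, adjusted p = 0.0276, edgeR), and Bcl2, which binds Beclin 1, and Prkaa2, an AMPK catalytic subunit, fell with Bic+4AP (−0.97 ± 0.26, adjusted p = 0.0257, and −0.88 ± 0.22, adjusted p = 0.00199, edgeR). Of 41 lysosomal genes tested, 7 rose with Bic+4AP and 0 fell by edgeR, and the higher ones included Ctsd, Ctsl, Gla, Hexa, Npc2 and Scarb2. KCl and Bic+4AP share the 23DIV basal libraries.

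Under TTX, 10 further genes were higher and 7 lower, or 8.06% and 5.65% of those tested, both below the 10.8% of all genes. Foxo6 rose by 1.38 ± 0.19 (adjusted p = 2.23e-07, edgeR), and the lysosomal genes Gusb (1.29 ± 0.28, adjusted p = 0.00035, edgeR) and Cln3 (1.22 ± 0.25, adjusted p = 0.000184, edgeR) rose as well. Gla (−1.45 ± 0.20, adjusted p = 3.59e-07, edgeR), Bnip3, a mitophagy receptor (−1.28 ± 0.14, adjusted p = 3.65e-09, edgeR), and Rheb (−1.25 ± 0.16, adjusted p = 8.71e-08, edgeR) fell. After washout 5 rose and 9 fell, or 4.03% and 7.26%, beside 6.78% and 6.45% of all genes. The rises included Lamp2, a lysosomal membrane protein (0.80 ± 0.16, adjusted p = 0.00175, edgeR), and Nufip1, a receptor for ribosomes (0.73 ± 0.18, adjusted p = 0.0141, edgeR). The largest falls were Gla (−0.996 ± 0.32, adjusted p = 0.0315, edgeR), Ddit4, an mTORC1 inhibitor (−0.91 ± 0.21, adjusted p = 0.00785, edgeR), and Depdc5 (−0.86 ± 0.35, adjusted p = 0.0336, edgeR). With maturation, 27 further genes were higher and 6 lower, or 23.5% and 5.22% of those tested, beside 18.2% and 14.9% of all genes, and 19 of 39 tested lysosomal genes were among the higher ones.

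Promoters of the members are shown because several members moved together. RefSeq promoter windows of GRCm38.p6, from 250 bases before to 50 after the start, matched 34 of the 41 genes, with 43 windows. Windows were searched on both strands for the E-box CACGTG, which the TFE factors can bind, the longer CLEAR element of lysosomal genes, which contains that E-box, the CRE motif TGACGTCA and the AP-1 motif TGANTCA. The E-box was present in 4 of the 43 windows, and in 7.15% of 32851 windows of all genes. The CLEAR element was in 0 windows of members and in 0.326% of all, the CRE motif in 1 (Atg5) and in 1.79% of all, and the AP-1 motif in 1 (Tfe3) and in 7.81% of all. A match is a description of letters and not evidence of binding.

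The 8 members called in the most comparisons, 3 each, were Ulk2, Atg2b, Atg12, Atg13, Atg101, Wdr45, Vmp1 and Stbd1. Of the 3 with the lowest adjusted p, the windows of Vmp1 (its first, at chr11:86683787-86684086, minus strand) and Stbd1 (chr5:92602801-92603100, plus strand) hold none of the motifs, and Atg12 is named only. The 3 called members with an E-box, shown after their values were seen, are Atg5 (chr10:44268089-44268388, plus strand), Atg7 (chr6:114670846-114671145, plus strand) and Atg14 (chr14:47568385-47568684, minus strand). Atg7 rose with Bic+4AP at 23DIV, Atg5 rose with maturation and Atg14 fell with Bic at 21DIV. Capitals mark the E-box, and in Atg5 also the CRE motif downstream of it.
Vmp1: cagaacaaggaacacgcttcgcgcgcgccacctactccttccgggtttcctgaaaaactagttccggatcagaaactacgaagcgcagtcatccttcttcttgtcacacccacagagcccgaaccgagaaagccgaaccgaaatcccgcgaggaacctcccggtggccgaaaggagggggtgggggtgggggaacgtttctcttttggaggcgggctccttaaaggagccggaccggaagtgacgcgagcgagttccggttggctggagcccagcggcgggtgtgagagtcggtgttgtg
Stbd1: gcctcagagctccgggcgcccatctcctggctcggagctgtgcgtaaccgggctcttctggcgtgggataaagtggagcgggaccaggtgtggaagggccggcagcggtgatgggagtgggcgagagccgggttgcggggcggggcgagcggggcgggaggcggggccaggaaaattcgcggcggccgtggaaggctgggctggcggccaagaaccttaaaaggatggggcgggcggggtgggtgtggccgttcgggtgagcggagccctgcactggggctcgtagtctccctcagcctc
Atg5: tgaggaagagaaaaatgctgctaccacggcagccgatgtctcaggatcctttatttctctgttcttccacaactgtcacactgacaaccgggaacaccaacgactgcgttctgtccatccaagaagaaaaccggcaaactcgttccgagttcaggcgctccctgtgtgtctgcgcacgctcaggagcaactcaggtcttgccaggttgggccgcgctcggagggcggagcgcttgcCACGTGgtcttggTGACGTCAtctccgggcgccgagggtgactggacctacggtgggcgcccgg
Atg7: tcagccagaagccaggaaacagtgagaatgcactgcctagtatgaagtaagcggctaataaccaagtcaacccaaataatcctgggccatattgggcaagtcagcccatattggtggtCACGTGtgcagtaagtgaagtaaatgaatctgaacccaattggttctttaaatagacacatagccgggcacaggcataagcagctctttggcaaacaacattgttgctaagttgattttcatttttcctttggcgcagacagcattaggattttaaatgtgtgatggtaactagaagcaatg
Atg14: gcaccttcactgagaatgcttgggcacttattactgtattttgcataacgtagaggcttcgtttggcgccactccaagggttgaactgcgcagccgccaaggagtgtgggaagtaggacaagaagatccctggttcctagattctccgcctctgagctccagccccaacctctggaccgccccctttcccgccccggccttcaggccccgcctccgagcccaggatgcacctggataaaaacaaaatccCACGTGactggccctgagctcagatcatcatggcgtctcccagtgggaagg
The E-box lies close before the start in Atg5, spans the start in Atg14 and lies farther upstream in Atg7. The Atg7 window belongs to a start inside the gene, which begins at chr6:114643127. For these 3 genes only windows that hold a motif were shown.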

How the data were processed

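The authors made CEL-Seq2 libraries of transcript 3′ ends, used STAR for alignment to mm10 and ESAT, a counter of 3′ ends, and deposited unnormalized whole-number counts for each RefSeq transcript. Whether molecular identifiers were collapsed is not stated, so precision from counts covers counting error only. Accessions were matched to symbols with RefSeq GRCm38.p6 (80.8% of 97700 and 80.9% of 96722 transcripts). Unmatched transcripts held 18.5% and 19.2% of counts and stayed out. Median counts per library were 2867836 (7DIV), 5088478 (23DIV) and 2384138 (21DIV). All 55 columns were used. The label of 1 library and its column header differ in the day (21DIV and 2DIV) and were matched by their other codes. The 21DIV basal library titled replicate 5 reads replicate 2 in its column header and description, and the title was used.

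Genes above 5 CPM in 2 libraries were scaled by TMM and tested with edgeR 4.0.16 in R 4.3.3 (quasi-likelihood test, Benjamini-Hochberg over all genes). Each experiment had 1 fit with a group per condition and 1 test over the times of a stimulus, and the basal stages had a fit of 6 libraries. DESeq2 1.42.0 was an alternative. The tests were checked on simulated data. Python 3.11.15 with pandas 2.3.3, numpy 2.4.6, scipy 1.17.1 and matplotlib 3.10.9 did the rest. The genes and lists were chosen with earlier results of these data known. Values per library were given for Ulk1, Ulk2, Atg2b and Stbd1, which the study names, and for called members, up to 8 per comparison, and of the further lists the 3 largest rises and falls per comparison at 21DIV, 23DIV and under TTX were named, except that some of these are not reported here. Alternatives were RLE size factors, the likelihood ratio test, DESeq2, no filter, thinning to the smallest library, counts summed over transcripts, the replicate number as a block, the groups compared alone, the position letter and leaving out each library.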

Additional observations from a re-analysis of the deposited data

Results flagged for a closer look

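In basal TTX, the single group of 4 libraries, 38 members were examined for a library far from the others, and 2 stood out. Gabarapl1 read 233 CPM in replicate 3 and 297 to 305 in the other libraries. Vmp1 read 126.98 CPM in replicate 1 and 176 to 183 in the others. Chance alone marks about 1 in 20 of the genes examined in this way, and 2 of 38 is near that share. The response to 180 min of Bic+4AP differed between 23DIV and 7DIV for Atg12 by 0.66 on the log2 scale (adjusted p = 0.0244, edgeR's quasi-likelihood test), for Gabarap by 0.51 (adjusted p = 0.0427) and for Vmp1 by 1.01 (adjusted p = 0.00949), each with a larger rise at 23DIV.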

How the results depend on the processing

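Limits: groups held 2 to 4 libraries, genes of few counts such as Stbd1 carry wide errors, and the letters of the position code follow time in the stimuli experiment. Of 307 values of called genes under other settings 269 kept their call, as did 243 of 317 with a library left out, and 0 changed direction. Counts of called members that moved by over 1.5 times were as follows, beside 1 for 23DIV KCl, 0 for its stage difference, 6 for 21DIV KCl, 8 for 21DIV Bic, 1 for TTXw and 1 for 7DIV KCl in the report; the cause was not tested. For 23DIV KCl the count was 2 with RLE size factors, without the filter, with thinned counts and with DESeq2, and 0 with summed transcripts and with the compared groups only. For the stage difference of KCl it was 2 with the likelihood ratio test and with DESeq2, and 1 without the filter and with thinned counts. Thinned counts gave 3 for 21DIV KCl (Atg13, Ulk2, Wdr45), 3 for 21DIV Bic (Atg12, Atg13, Wdr45) and 2 for TTXw, and summed transcripts gave 5 for 21DIV Bic. Replicate numbers gave no sign of pairing, as the median correlation of deviations between libraries of the same number was −0.0194 at 23DIV, 7.8e-06 at 7DIV and 0.00764 at 21DIV. Single values ran from −0.247 to 0.114 at 23DIV, and with groups this small the measure cannot decide whether libraries were paired. With the replicate block the counts were 0 for 7DIV KCl, 2 for 23DIV KCl, 3 for 21DIV KCl, 5 for 21DIV Bic and 2 for TTXw. With 1 library left out, counts ranged from 3 to 7 for maturation, 0 to 1 for 7DIV KCl, 0 to 0 for 7DIV Bic+4AP, 0 to 2 for 23DIV KCl, 1 to 7 for 23DIV Bic+4AP, 0 to 2 for the stage difference of KCl, 0 to 3 for that of Bic+4AP, 2 to 6 for 21DIV KCl, 5 to 8 for 21DIV Bic, 1 to 3 for TTXw and 5 to 6 for basal TTX. The stage difference of KCl became 1 without 23DIV basal replicate 1 (Map1lc3a) and 2 without 23DIV KCl 15 min replicate 3 (Map1lc3a, Ulk2), and that of Bic+4AP became 1 (Vmp1) without 7DIV Bic+4AP 180 min replicate 3 or 23DIV Bic+4AP 15 min replicate 1. The 23DIV KCl count became 2 without KCl 15 min replicate 3 or KCl 180 min replicate 2 (Rb1cc1, Ulk2).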
